A study of Oryctolagus cuniculus with 8 samples.

Results

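The receptors for glutamate, GABA and glycine were followed in the retinas of rabbits kept on 4 diets. They were taken from the expression table as the protein-coding genes whose symbols begin with the family names of the ionotropic and metabotropic glutamate receptors, the GABA receptors and the glycine receptors. This gave 50 of 19293 protein-coding genes, of which 45 had at least 1 FPKM (fragments scaled by gene length and library depth) in at least 2 libraries and were tested with 12204 genes in all. RNA was sequenced from whole retinas of male Chinchilla rabbits of wild-type genotype, bought at 12 to 16 weeks of age and about 10 months old at the time of study. After 6 months of feeding, 2 retinas were sequenced from each of 4 groups, which were ND (standard chow alone), HFD (chow with 10% lard and 0.5% cholesterol), HSD (chow with 40% sucrose) and HFSD (chow with the same lard and cholesterol as HFD, plus 35% sucrose). The labels do not say whether the 2 retinas of a diet came from different rabbits, so p-values measure only the spread between these retinas.

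Photoreceptors release glutamate in the dark and less of it in light. ON bipolar cells read this signal through the metabotropic receptor mGluR6, encoded by GRM6, which inverts its sign, whereas OFF bipolar cells and horizontal cells use AMPA and kainate receptors, which keep it. Horizontal and amacrine cells answer with GABA and glycine, and the retina is known for its rho subunits, which form slow GABA-gated chloride channels on bipolar cell terminals.

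All 8 libraries held the rod and cone markers of a retina, with rod markers summing to between 28576 and 40436 FPKM. Depth, recovered from the steps between FPKM values, lay between 15764577 and 22785832 fragments. Some libraries stood apart. Skeletal muscle markers summed to 434 FPKM in HSD2 and to at most 4.40 FPKM in the other libraries. Markers of the pigment epithelium were highest in ND, at 299 and 213 FPKM against at most 89.8 FPKM elsewhere, and myelin markers were highest in ND1, HFD1 and HFD2. In HFD1, genes longer than 4000 bases lay lower, by a median of −0.13 on the log2 scale, and genes of at most 1000 bases lay higher, by 0.17. The receptor genes tested were longer than most, with a median of 3092 bases against 1987 bases for all genes tested.

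GRM6 was the most abundant of these receptor genes, with 67.1 to 90.1 FPKM, and its range overlapped that of GABBR1, the ligand-binding subunit of the GABA-B receptor, at 59.2 to 82.9 FPKM. The rho subunits GABRR1 (27.3 to 50.2 FPKM) and GABRR2 (29.1 to 42.3 FPKM), the kainate subunit GRIK1 (18.9 to 45.3 FPKM) and the AMPA subunit GRIA2 (15.6 to 38.7 FPKM) had overlapping ranges below these. FPKM is scaled by gene length, so these levels can be set side by side. Among the 5 genes below the filter were GABRA5, GABRE, GABRQ and GABRP. Their highest values were 0.371 FPKM for GABRA5, 0.499 FPKM for GABRE, 0.757 FPKM for GABRQ and 0.0148 FPKM for GABRP. The other encodes no receptor and was put in no class. The lowest mean among the genes tested belonged to GRIN2B, an NMDA subunit, which passed the filter only through the HSD retinas, where it had 1.60 and 1.16 FPKM. The genes next above it were GABRB1, with 0.509 to 2.03 FPKM and 20 to 83 fragments a library, and GLRA4, with 0.712 to 2.62 FPKM and 27 to 128 fragments. GRIN1, GRIN2A and GRIN3B, also NMDA subunits, were not analysed here.

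The main question of the comparison was how the receptor genes differed with each part of the diet, and the largest differences went with sucrose. When the 4 retinas of HSD and HFSD were set against the 4 retinas of ND and HFD, 22 of 45 receptor genes were higher with sucrose and 0 were lower at an unadjusted p under 0.05, where 9.17% of all genes tested were higher and 9.16% lower. No receptor gene reached an adjusted p of 0.05 with limma, with smallest adjusted p = 0.0808, whereas 42 of 12204 genes did (0.344%). Voom on the recovered fragments gave 21 receptor genes at an unadjusted p under 0.05, all higher, and also 0 by adjusted p. With no filter on low values, 23 of 50 were higher and 0 lower at the unadjusted limit, where 7.76% of genes were higher and 7.82% lower. The median difference of the tested receptor genes was 0.31 on the log2(FPKM + 1) scale, and that of all genes tested was −0.01. For 19 receptor genes all 4 sucrose retinas lay above all 4 others, and for 0 all lay below, where 6.39% and 6.48% of all genes did. GRIN2B is in both counts but passed the filter in sucrose libraries alone, and among the other 44 genes 21 were higher at the unadjusted limit and 18 lay apart. In whole retina, more RNA per cell and more cells of a type that holds the RNA cannot be told apart.

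**Figure D1:**
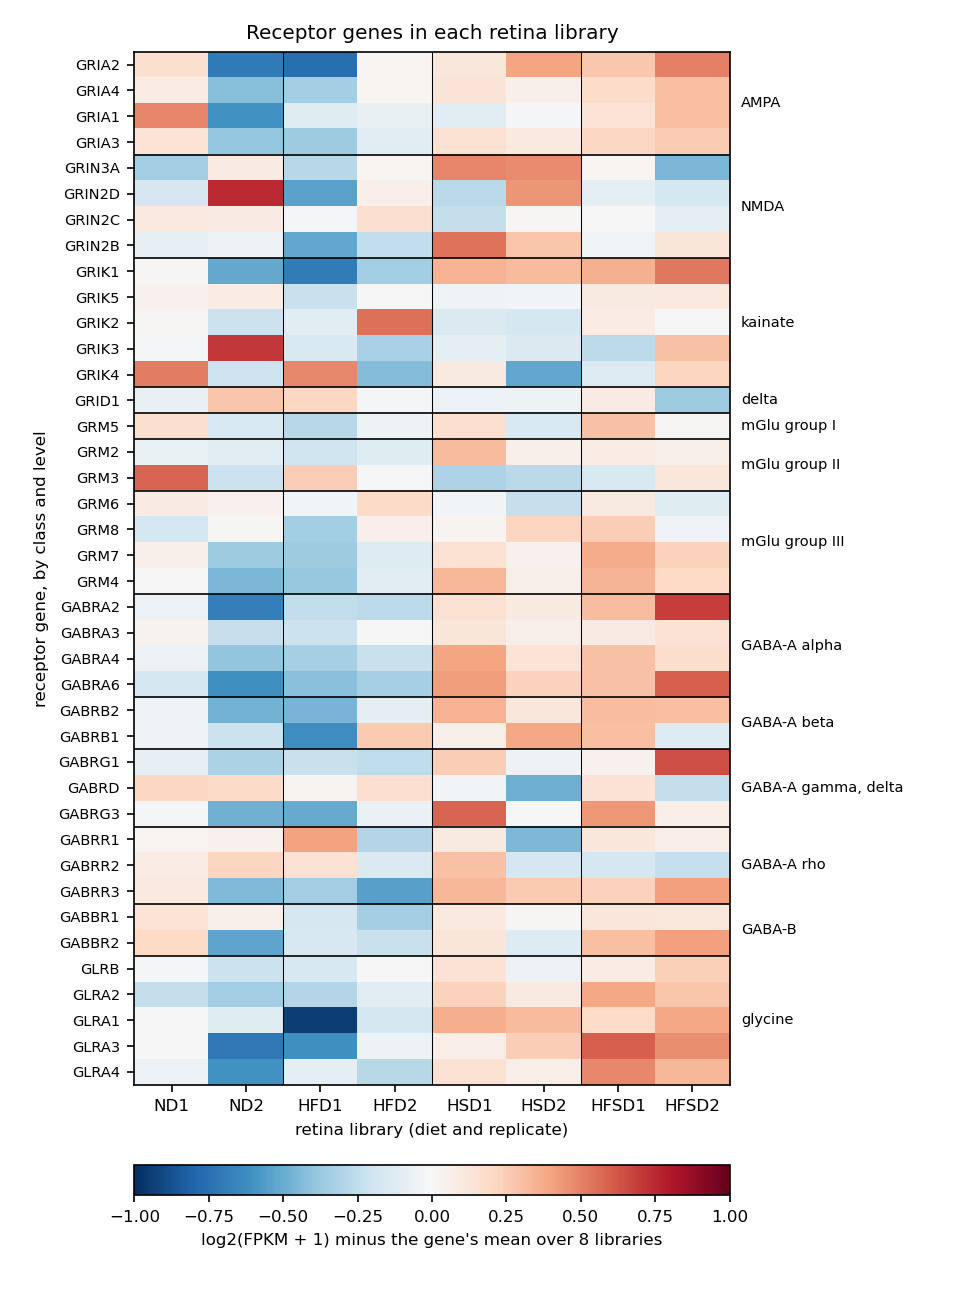
Each row is 1 of 40 receptor genes, grouped by class and ordered by level within a class, and each column is 1 retina library. Color gives log2(FPKM + 1) minus the gene's mean over the 8 libraries, with red above and blue below. Most rows are blue in ND2 and HFD1 and red in the HSD and HFSD libraries, while GRM6, GABRR2, GABRD and GRM3 do not follow this.

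**Figure D2:**
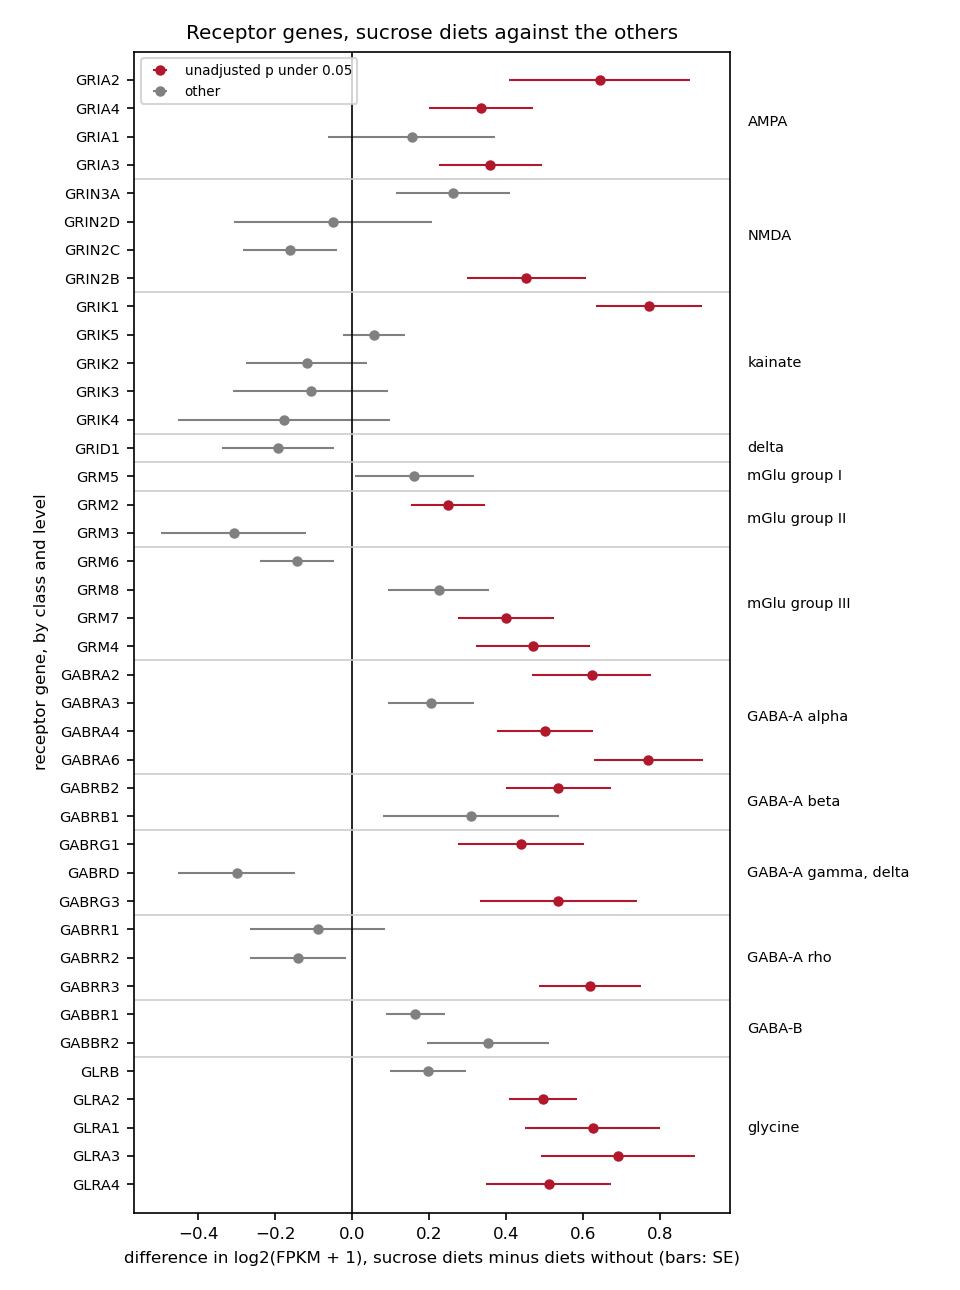
Points give the difference in log2(FPKM + 1) between the 4 retinas with sucrose in the diet and the 4 without, and bars give its standard error from limma. Of 40 receptor genes drawn, the 19 in red have an unadjusted p under 0.05 and all lie to the right of 0, and none of the 40 reached an adjusted p of 0.05.

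Among the AMPA receptors, the fast glutamate-gated channels, 3 of 4 subunits were higher with sucrose at the unadjusted limit. GRIA2, the subunit that makes these channels impermeable to calcium, had 30.2 and 16.1 FPKM in ND, 15.6 and 27.3 FPKM in HFD, 29.2 and 35.8 FPKM in HSD and 32.8 and 38.7 FPKM in HFSD. ND2 and HFD1 were the low libraries, and ND1 lay above HSD1, so the groups overlapped. Its difference was 0.64 ± 0.23 (SE) on the log2 scale (limma, unadjusted p = 0.0273, adjusted p = 0.218). GRIA3 and GRIA4 differed by 0.36 and 0.34, and their groups overlapped too. GRIA1 differed by 0.16 ± 0.22, with a range of 8.39 to 19.0 FPKM within ND alone.

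The kainate receptors stood out through 1 gene. GRIK1, a kainate subunit known from OFF bipolar cells, had 31.4 and 21.6 FPKM in ND and 18.9 and 24.3 FPKM in HFD. It had 39.8 and 39.0 FPKM in HSD and 40.2 and 45.3 FPKM in HFSD, above all 4 retinas without sucrose. The mean was 41.1 ± 2.83 FPKM (SD, n = 4) with sucrose and 24.0 ± 5.41 FPKM (SD, n = 4) without, a ratio of 1.71. The difference of 0.77 ± 0.14 (SE) on the log2 scale had the smallest p among the receptor genes (limma, unadjusted p = 0.000659, adjusted p = 0.0808). The other kainate genes were not higher at the unadjusted limit. GRIK5, the kainate subunit with the next highest level, differed by 0.06 ± 0.08, and GRIK2, GRIK3 and GRIK4 by −0.12, −0.11 and −0.18. GRIK1 made up 58.0% to 60.0% of the summed FPKM of the kainate genes with sucrose and 41.5% to 51.2% without.

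NMDA receptors, which need both glutamate and a co-agonist, were represented by 4 subunits, without the obligatory subunit GRIN1, so the level of the class as a whole was not assessed. Of these 4 the highest was GRIN3A, an unusual subunit that binds glycine. GRIN3A had 14.7 and 20.2 FPKM in ND, 15.4 and 19.3 FPKM in HFD, 27.0 and 26.7 FPKM in HSD and 19.2 and 13.5 FPKM in HFSD. The HSD retinas lay above the other 6, which overlapped. GRIN2B was higher with sucrose by 0.45 ± 0.15 (SE), but rested on 22 to 112 fragments a library and on a filter passed only in HSD. GRIN2C and GRIN2D differed by −0.16 and −0.05 and did not pass the unadjusted limit. GRID1, a delta receptor, one of the relatives that do not open to glutamate in the usual way, differed by −0.19 ± 0.15 (SE). It ranged from 2.99 to 5.18 FPKM, and its groups overlapped.

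Metabotropic receptors act through G proteins, and here 3 of 8 genes were higher with sucrose at the unadjusted limit. GRM6 was not among them. It had 83.7 and 81.1 FPKM in ND, 77.2 and 90.1 FPKM in HFD, 77.5 and 67.1 FPKM in HSD and 84.1 and 72.3 FPKM in HFSD. Both HSD retinas lay below both ND retinas, the retinas with and without sucrose overlapped, and the sucrose difference was −0.14 ± 0.09 (limma, unadjusted p = 0.173, adjusted p = 0.448). The other group III receptors sit mainly on presynaptic terminals. GRM4 had 2.33 to 3.55 FPKM without sucrose and 3.76 to 4.78 FPKM with it, and differed by 0.47 ± 0.15. GRM7 had 4.41 to 6.17 FPKM without and 6.16 to 7.95 FPKM with sucrose, with ND1 just above HSD2, and differed by 0.40 ± 0.12. GRM8 differed by 0.22 ± 0.13 and did not pass the unadjusted limit. Since GRM6 was so abundant, it still made up 78.6% to 80.6% of the summed FPKM of group III with sucrose and 84.1% to 86.3% without.

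In group II, whose receptors lower cyclic AMP and transmitter release, GRM2 had 7.42 and 7.14 FPKM in ND, 6.69 and 7.09 FPKM in HFD, 9.95 and 8.15 FPKM in HSD and 8.28 and 8.15 FPKM in HFSD. The sucrose retinas lay above the others without overlap, with a difference of 0.25 ± 0.10. GRM3, the other group II gene, differed by −0.31 ± 0.19, with 5.70 FPKM in ND1 and 2.62 to 4.31 FPKM elsewhere. GRM5, a group I receptor, which raises intracellular calcium, had 1.46 to 2.67 FPKM and did not pass the unadjusted limit.

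The GABA-A receptors, chloride channels usually built from α, β and γ subunits, gave the largest group. Of the α subunits 4 of 5 were higher with sucrose at the unadjusted limit, of the β subunits 2 of 3, and of the γ and δ subunits 3 of 4. GABRA6, an α subunit best known from granule cells of the cerebellum, had 3.42 and 2.27 FPKM in ND, 2.72 and 2.96 FPKM in HFD, 5.66 and 4.86 FPKM in HSD and 5.11 and 6.53 FPKM in HFSD. With 90 to 261 fragments a library, every sucrose retina lay above every other one, and the ratio of the means was 1.95. The difference was 0.77 ± 0.14 (SE, limma, unadjusted p = 0.000787, adjusted p = 0.0838). GABRA2 had 14.5 and 9.02 FPKM in ND, 12.6 and 12.4 FPKM in HFD, 16.9 and 16.1 FPKM in HSD and 18.9 and 25.0 FPKM in HFSD. Its groups did not overlap, HFSD2 was the highest library, and the difference was 0.62 ± 0.15. GABRA4 differed by 0.50 ± 0.12, also without overlap. GABRA3 differed by 0.20 ± 0.11 and did not pass the unadjusted limit, although its sucrose retinas too lay above the others.

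Of the β subunits, GABRB2 had 8.26 to 11.5 FPKM without sucrose and 12.9 to 15.3 FPKM with it. It differed by 0.53 ± 0.14 (SE), without overlap, and GABRB1 by 0.31 ± 0.23 with overlap. The γ subunits GABRG1 and GABRG3 differed by 0.44 ± 0.16 and 0.54 ± 0.20 (SE), also without overlap. GABRD, the subunit of extrasynaptic receptors, differed by −0.30 ± 0.15 and did not pass the unadjusted limit. It made up 7.32% to 11.3% of the summed FPKM of the γ and other subunits with sucrose and 13.5% to 17.2% without.

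Many GABA-A genes lie in clusters. In the RefSeq gene order of assembly mOryCun1.1, in which 47 of 50 symbols were found, GABRG1 and GABRA2 were direct neighbours, and both were higher with sucrose at the unadjusted limit. Of the neighbours GABRA4 and GABRB1 the first passed it and the second did not, and of GRIA2 and GLRB, also direct neighbours, only GRIA2 did.

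Of the rho subunits, 1 of 3 was higher with sucrose at the unadjusted limit. GABRR1 had 38.2 and 38.9 FPKM in ND, 50.2 and 30.6 FPKM in HFD, 40.2 and 27.3 FPKM in HSD and 40.8 and 39.4 FPKM in HFSD. Both HFSD retinas lay just above both ND retinas, while the retinas with and without sucrose overlapped, and the sucrose difference was −0.09 ± 0.17. GABRR2 differed by −0.14 ± 0.12. GABRR3 had 16.1 and 10.7 FPKM in ND, 11.5 and 9.94 FPKM in HFD, 19.1 and 18.1 FPKM in HSD and 17.7 and 20.2 FPKM in HFSD. All its sucrose retinas lay above the others, with a difference of 0.62 ± 0.13 (SE, limma, unadjusted p = 0.00203, adjusted p = 0.102). The differences between these genes were not themselves tested.

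The GABA-B receptor, a G-protein-coupled pair of GABBR1 and GABBR2, did not pass the unadjusted limit with sucrose. GABBR1 had 82.9 and 78.0 FPKM in ND, 66.9 and 59.2 FPKM in HFD, 80.7 and 76.1 FPKM in HSD and 81.5 and 81.3 FPKM in HFSD. The HFD retinas were the 2 lowest of the 8. GABBR2 had 12.0 to 20.5 FPKM without sucrose and 16.1 to 23.9 FPKM with it, and differed by 0.35 ± 0.16.

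Glycine receptors, the chloride channels that serve the AII amacrine cells of the rod pathway among others, had 4 of 5 genes higher with sucrose at the unadjusted limit, and these were the 4 α subunits. GLRA2 had 11.0 and 10.1 FPKM in ND, 10.5 and 12.0 FPKM in HFD, 15.5 and 14.0 FPKM in HSD and 17.5 and 16.1 FPKM in HFSD. The groups did not overlap, with means of 15.8 ± 1.45 and 10.9 ± 0.825 FPKM (SD, n = 4 each) and a difference of 0.50 ± 0.09 (SE, limma, unadjusted p = 0.000702, adjusted p = 0.0810). GLRA1, the main α subunit of the adult spinal cord, had 3.78 and 3.42 FPKM in ND, 1.49 and 3.25 FPKM in HFD, 5.17 and 4.98 FPKM in HSD and 4.46 and 5.28 FPKM in HFSD. HFD1 was the lowest library, the groups did not overlap, and the difference was 0.62 ± 0.18. GLRA3 and GLRA4 differed by 0.69 and 0.51, also without overlap, with 38 to 173 and 27 to 128 fragments a library. GLRB, the β subunit that ties the channel to the synaptic scaffold, had 15.9 and 13.7 FPKM in ND, 14.2 and 16.1 FPKM in HFD, 17.8 and 15.3 FPKM in HSD and 16.9 and 19.1 FPKM in HFSD. Its groups overlapped and its difference was 0.20 ± 0.10 (limma, unadjusted p = 0.0822, adjusted p = 0.326). GLRB made up 36.4% to 40.8% of the summed FPKM of the glycine receptor genes with sucrose and 45.2% to 48.6% without.

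**Figure D3:**
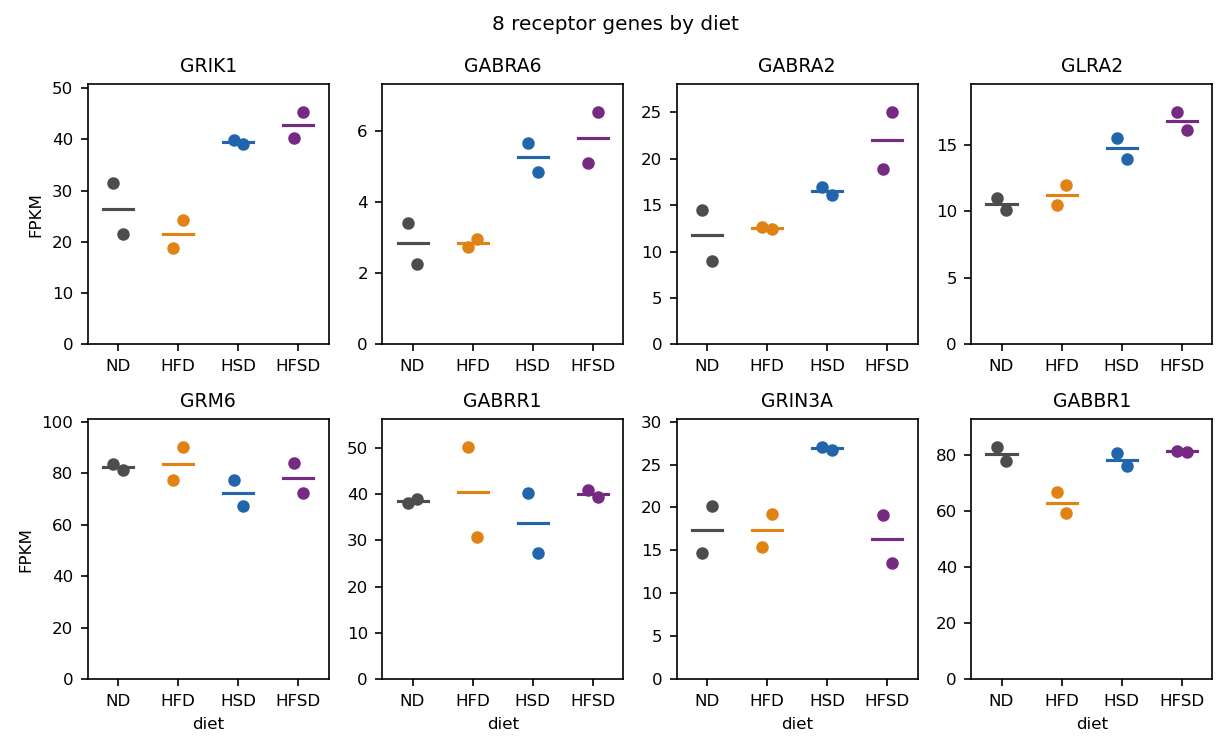
FPKM of 8 receptor genes in each retina, by diet, with a bar at the mean of the 2 retinas of a diet. GRIK1, GABRA6, GABRA2 and GLRA2 are higher in all 4 retinas of HSD and HFSD than in any of ND and HFD, GRM6 and GABRR1 overlap between retinas with and without sucrose, GRIN3A is highest in HSD at 27.0 and 26.7 FPKM, and GABBR1 is lowest in HFD at 66.9 and 59.2 FPKM.

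Summed over their genes, 4 classes had all sucrose retinas above all others. The GABA-A α subunits summed to 74.8 to 91.9 FPKM with sucrose and 48.1 to 66.3 FPKM without. The β subunits summed to 42.2 to 48.1 FPKM with and 29.3 to 38.3 FPKM without. The kainate genes summed to 65.0 to 76.2 FPKM with and 44.5 to 61.4 FPKM without, a difference carried by GRIK1, and the glycine receptor genes to 39.7 to 47.3 FPKM with and 29.3 to 35.3 FPKM without. The other classes overlapped. AMPA receptors summed to 70.2 to 87.3 FPKM with sucrose and 43.5 to 77.1 FPKM without, where ND1 was the highest. Group III metabotropic receptors summed to 85.3 to 105.4 FPKM with and 89.5 to 106.0 FPKM without sucrose, and the rho subunits to 75.7 to 101.6 FPKM with and 71.4 to 99.6 FPKM without.

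**Figure D4:**
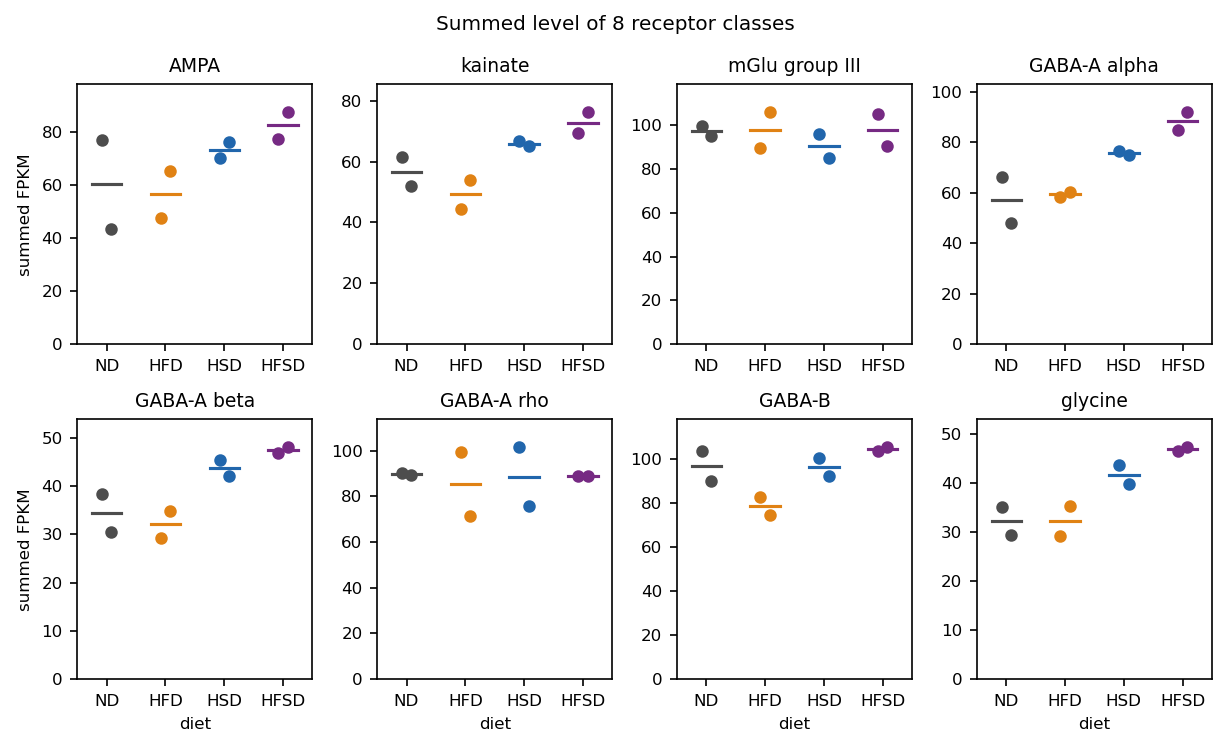
Summed FPKM of the genes of 8 receptor classes in each retina, by diet, with a bar at the mean of the 2 retinas. The kainate, GABA-A α, GABA-A β and glycine sums of HSD and HFSD lie above those of ND and HFD, and the group III metabotropic, rho, GABA-B and AMPA sums overlap.

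**Figure D5:**
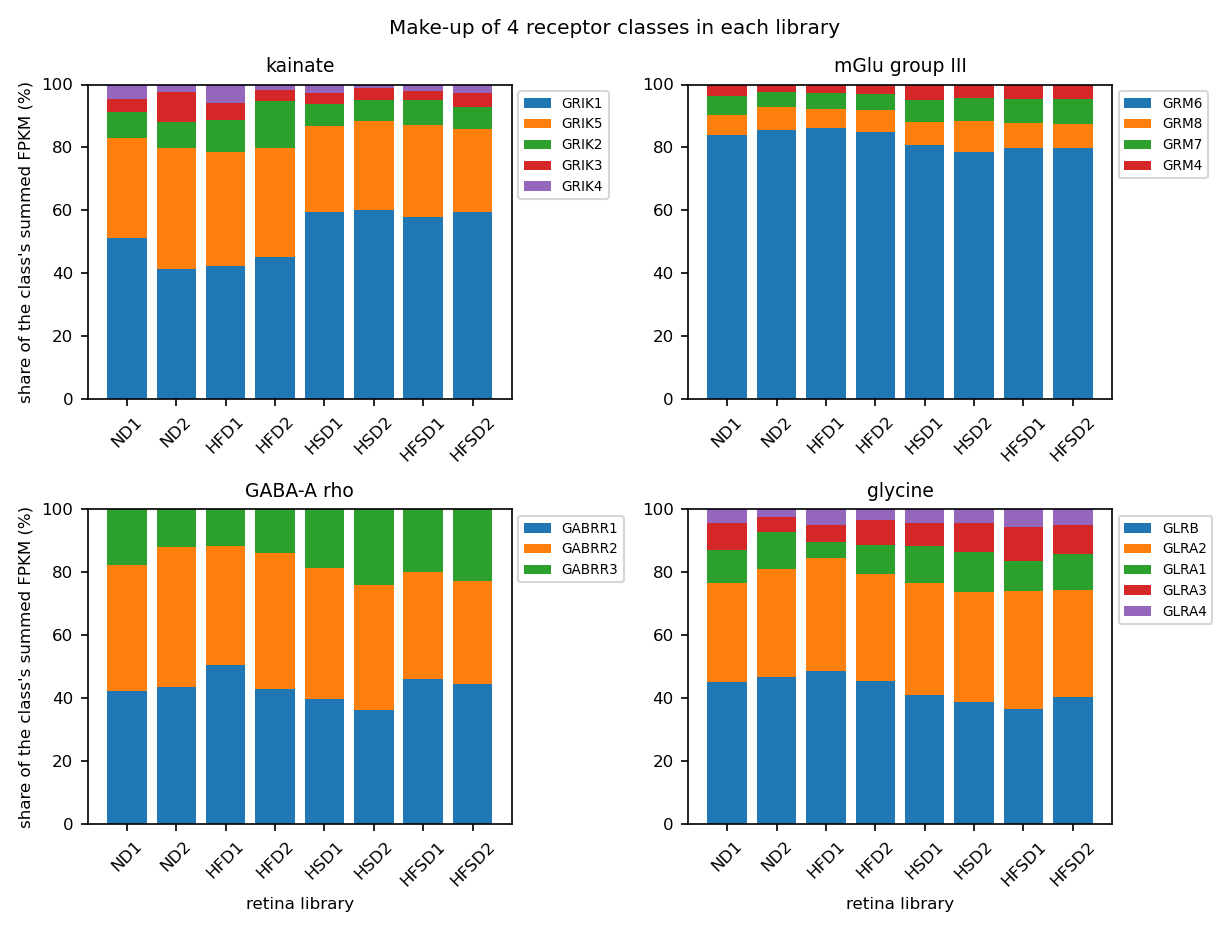
Stacked bars give the share of each gene in the summed FPKM of its class, in percent, for each library. With sucrose, GRIK1 takes 58.0% to 60.0% of the kainate class, GRM6 78.6% to 80.6% of group III, GABRR3 18.8% to 23.9% of the rho class and GLRB 36.4% to 40.8% of the glycine class.

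Each diet was then compared with ND. These comparisons share the 2 ND retinas, so they are not independent of each other. In HFD, 0 of 45 receptor genes were higher and 1 was lower at the unadjusted limit, where 1.8% and 2.51% of all genes were, and 0 passed the adjusted limit (limma), where 0.00819% of all genes did. This gene was GABBR1, lower by −0.35 ± 0.11 (SE, unadjusted p = 0.0133, adjusted p = 0.998), and voom gave 2 receptor genes at the unadjusted limit. It no longer passed that limit without ND1 or without HFD2, and the count in HFD was 1 higher and 2 lower without ND1, 0 higher and 5 lower without ND2, 1 higher and 1 lower without HFD1, and 0 higher and 2 lower without HFD2. Over the 8 libraries left out in turn, 3.27% to 9.85% of all genes passed in HFD. In HSD, 8 of 45 were higher and 0 lower, where 2.7% and 4.51% of all genes were. By adjusted p 0 passed (limma), where 0.0574% of all genes did, and voom gave 10 at the unadjusted limit. The smallest p-values were those of GABRA6, at 0.72 ± 0.20 (adjusted p = 0.449), GLRA2, at 0.45 ± 0.13 (adjusted p = 0.449), and GRIK1, at 0.58 ± 0.19 (adjusted p = 0.563). Among the others were GRIN3A, GABRA4, GABRB2 and GABRR3. The count in HSD was 19 higher and 1 lower without ND1, 1 higher and 1 lower without HSD1, 3 higher and 2 lower without ND2, and 5 higher and 0 lower without either HFSD retina, where 4.96% to 10.3% of all genes passed over the 8 libraries left out.

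In HFSD, 15 of 45 receptor genes were higher and 0 lower at the unadjusted limit, where 3.7% and 4.37% of all genes were. By adjusted p 0 passed (limma), where 0.0164% of all genes did, and voom gave 15 at the unadjusted limit. GLRA2 differed by 0.63 ± 0.13 (adjusted p = 0.238), GABRA6 by 0.84 ± 0.20 (adjusted p = 0.364) and GABRA2 by 0.87 ± 0.22 (adjusted p = 0.390). The rest were 7 other GABA-A or rho genes, 2 further glycine receptor genes, GRIK1, GRM4 and GRM7. The count in HFSD was 4 higher and 1 lower without ND2, and 7 higher and 0 lower without either HFSD retina, where 4.19% to 12.8% of all genes passed over the 8 libraries left out. When HFSD was set against HFD, so that both groups had received lard and cholesterol, 19 of 45 were higher and 0 lower at the unadjusted limit, where 7.96% and 7.17% of all genes were. By adjusted p 0 passed (limma), where 0.00819% of all genes did, and voom gave 20 at the unadjusted limit. The count was 9 higher and 1 lower without HFD1, and 9 higher and 0 lower without either HFSD retina, where 7.10% to 21.2% of all genes passed over the 8 libraries left out. This comparison was chosen after the values had been seen. It shares no library with HSD against ND, but both comparisons come from 1 model with 1 estimate of the spread for each gene. The p-values of the 2 comparisons are therefore not independent. Receptor genes higher in both numbered 7, among them GRIK1, GLRA2, GABRA6, GABRR3, GABRB2 and GABRA4. They made up 87.5% of the receptor genes higher in HSD against ND and 36.8% of those higher in HFSD against HFD, where among all genes tested these shares were 38.0% and 12.9%. They were 15.6% of the receptor genes tested, and 1.02% of all genes tested were higher in both.

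By the fold limits of the study, which call a gene when the ratio of mean FPKM + 1 is above 1.54 or below 0.65, 1 receptor gene was lower in HFD, 1 higher in HSD and 6 higher in HFSD. Among all genes tested, 1.16% were below the lower limit in HFD and 1.38% above the upper one. In HSD 1.76% were above and 3.54% below, and in HFSD 1.52% were above and 3.54% below. The HFD gene was the kainate subunit GRIK3, with 2.29 and 1.92 FPKM against 2.60 and 4.96 FPKM in ND and a ratio just under the limit. The HSD gene was GABRA6, with a ratio of 1.63. In HFSD they were GABRA2 (1.80), GLRA3 (1.80), GABRA6 (1.77), GLRA4 (1.64), GRIK1 (1.59) and GLRA2, which lay just above the limit. When each ND and diet retina was left out in turn, GABRA6 in HFSD was the only one that stayed past the limit each time, at 1.54 to 2.09. With 1 retina left out, the ratio ran from 1.42 to 1.92 for GABRA6 in HSD and from 0.52 to 0.86 for GRIK3 in HFD. In HFSD it ran from 1.35 to 1.94 for GRIK1 and from 1.48 to 2.29 for GABRA2. The count of genes past the limits changed with the retina left out, and the share of all genes in those settings is not given.

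Fat, given as lard with cholesterol, was read next over diets with and without sucrose. With the 4 retinas of HFD and HFSD against the other 4, 0 of 45 were higher and 1 was lower at the unadjusted limit, where 1.2% and 2% of all genes were. By adjusted p 0 passed (limma), where 0.00819% of all genes did, and voom gave 2 at the unadjusted limit. That gene was GRIN3A, at −0.35 ± 0.15 (adjusted p = 1.0). The interaction of fat and sucrose, which asks whether the sucrose difference depended on fat, was above 0 for 1 of 45 and below 0 for 1 of 45 at the unadjusted limit, where 1.77% and 1.97% of all genes were. By adjusted p 0 passed (limma), where 0.00819% of all genes did, and voom gave 2 at the unadjusted limit. These were GABBR1 and GRIN3A. For fat the count was 6 higher and 2 lower without ND1, 1 higher and 1 lower without HFD1, 0 higher and 2 lower without HFD2, and 0 without HSD1 or without HFSD2. For the interaction it was 7 above and 1 below 0 without ND2, 1 above 0 without ND1, 1 below 0 without HFSD1, and 0 without HSD1, without HSD2 or without HFSD2. Over the 8 libraries left out, 2.17% to 7.01% of all genes passed for fat and 2.38% to 7.26% for the interaction.

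The count of 22 was smaller without 2 libraries. They were picked after the receptor genes were seen to lie lowest in them, so leaving them out lowers the sucrose difference by construction. The median difference of the receptor genes was then 0.19 on the log2 scale, against 0.31 with all libraries. The receptor genes as a group lay lowest in HFD1 and ND2, by medians of −0.25 and −0.21 on the log2 scale from their means over the libraries, and ND2 was the lowest library for 18 and HFD1 for 14 of the 45. HFSD2 was the highest library for 17. With ND2 and HFD1 left out, 14 receptor genes were higher and 2, GRIK2 and GRM3, lower with sucrose at the unadjusted limit, where 7.25% and 8.10% of all genes were, and of the 22 genes 13 remained (59.1%), where 53.6% of the 1119 genes higher with sucrose did. Among these were GABRA2, GABRA4, GABRA6, GABRB2, GABRR3, GRIK1 and the 4 glycine receptor α subunits. The AMPA genes, the metabotropic genes, GABRG1, GABRG3 and GRIN2B were not among them. With each of the 8 libraries left out in turn, 12 of the 22 passed every time, among them GABRA2, GABRA4, GABRA6, GABRB2, GABRR3, GLRA1, GLRA2, GLRA3, GRIK1 and GRM7. This was 54.5% of the 22, and 38.2% of the 1119 genes higher with sucrose passed every time. With the gene length trend of each library taken off, 20 of the 22 remained, without GRIA3 and GRIA4, GABRD passed as lower, and 8.82% of all genes were higher and 9.41% lower. The part of length and of these 2 libraries in the AMPA and metabotropic differences was not tested further.

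Markers of retinal and neighbouring cells were set beside the receptor genes. The counts are to be read against the 9.17% of all genes that were higher and the 9.16% that were lower with sucrose. Cone markers were higher with sucrose for 7 of 7 genes at the unadjusted limit, 2 of them also by adjusted p, and summed to 1216 to 1366 FPKM with sucrose and 690 to 1020 FPKM without. Horizontal cell markers were higher for 3 of 6 genes, with overlapping sums. Of the bipolar markers 1 was higher and 2 lower out of 8, with a median difference of −0.003 on the log2 scale, and of 11 amacrine markers 0 passed in either direction, with a median of 0.06. Ganglion cell markers had a median of 0.19, with 1 higher and 1 lower of 10. Müller glia markers had a median of −0.14, with 2 of 8 lower, and summed to 2037 to 2191 FPKM with sucrose and 2762 to 3987 FPKM without. Myelin markers were lower for 6 of 6 genes at the unadjusted limit, with a median of −1.87, and summed to 45.4 to 153.95 FPKM with sucrose and 95.7 to 699 FPKM without. Pigment epithelium markers were lower for 5 of 7 genes, with a median of −1.26, and summed to 27.8 to 64.7 FPKM with and 45.5 to 299 FPKM without. Microglia markers were lower for 3 of 6 genes, with a median of −0.41, and summed to 7.06 to 10.6 FPKM with and 9.78 to 15.8 FPKM without. The sums of these 3 lists overlapped between retinas with and without sucrose. None of their genes passed the adjusted limit with sucrose (limma). Astrocyte markers, of which GFAP gave most of the sum, had 1 of 3 genes lower and summed to 532 and 18.4 FPKM in ND, 223 and 209 FPKM in HFD, 6.54 and 5.02 FPKM in HSD and 9.97 and 74.2 FPKM in HFSD. Early response genes, such as FOS and EGR1, summed to 2135 FPKM in ND1, 118 FPKM in HFD1 and 273 to 693 FPKM in the other libraries, and 0 of 6 passed the unadjusted limit with sucrose. The part of cell makeup in the receptor differences was not tested.

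The genes that work with these receptors were read from lists in the same model, where the smallest adjusted p in any diet was 0.195 (limma). Of all genes tested, 9.17% were higher and 9.16% lower with sucrose, so 1 or 2 genes of a list of this size lie near that share. Of 8 auxiliary proteins of AMPA and kainate receptors, 4 were higher and 0 lower with sucrose at the unadjusted limit, with a median of 0.22. SHISA6, which holds AMPA receptors at synapses, had 3.32 and 2.82 FPKM in ND, 3.13 and 2.90 FPKM in HFD, 6.03 and 5.41 FPKM in HSD and 5.33 and 5.72 FPKM in HFSD. Its sucrose retinas lay well above the others, with a difference of 0.71 ± 0.10 and an adjusted p = 0.0501 (limma). CACNG2, or stargazin, had 12.5 and 10.0 FPKM in ND, 7.21 and 8.32 FPKM in HFD, 11.4 and 10.8 FPKM in HSD and 10.7 and 12.5 FPKM in HFSD. The HFD retinas were the 2 lowest, by −0.48 ± 0.15 from ND (limma, adjusted p = 0.998). Of 11 glutamate receptor scaffolds 3 were higher and 1 lower with sucrose, with a median of 0.24, and of 8 scaffolds and partners of GABA and glycine receptors 2 were higher and 1 lower, with a median of 0.09. KCTD12, an auxiliary subunit of GABA-B receptors, had 11.3 and 12.4 FPKM in ND, 9.87 and 12.3 FPKM in HFD, 19.9 and 20.4 FPKM in HSD and 14.0 and 11.7 FPKM in HFSD. The HSD retinas stood above the other 6, and the difference from ND was 0.72 ± 0.15 (limma, adjusted p = 0.249).

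The mGluR6 cascade, through which ON bipolar cells turn the receptor's signal into channel opening, had 12 genes tested, of which 1 was higher and 2 lower with sucrose, with a median of −0.09. RGS7, which shuts off the G protein of mGluR6, had 19.2 and 14.5 FPKM in ND, 28.7 and 28.2 FPKM in HFD, 19.1 and 23.1 FPKM in HSD and 30.5 FPKM in both HFSD retinas. The retinas given lard and cholesterol lay above the others, with differences from ND of 0.73 ± 0.16 in HFD (limma, adjusted p = 0.746) and 0.83 ± 0.16 in HFSD (limma, adjusted p = 0.207). LRIT3, needed to place the cascade's channel at the synapse, had 35.4 and 40.5 FPKM in ND, 27.6 and 28.9 FPKM in HFD, 38.1 and 35.5 FPKM in HSD and 38.6 and 39.6 FPKM in HFSD. Here too the HFD retinas were the 2 lowest, by −0.41 ± 0.11 from ND (limma, adjusted p = 0.998).

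Of 13 genes for glutamate release, uptake and recycling, 2 were higher and 1 lower with sucrose, with a median of −0.01. GLUL, the glutamine synthetase of Müller glia, had 1489 and 2127 FPKM in ND, 1685 and 1551 FPKM in HFD, 754 and 883 FPKM in HSD and 722 and 890 FPKM in HFSD. The sucrose retinas lay far below the others, by −1.07 ± 0.16 with adjusted p = 0.0501 (limma), and GLUL also counts among the Müller glia markers. Of 8 genes for synthesis and transport of GABA and glycine, 0 were higher and 3 lower, with a median of −0.04. SLC6A13, the GABA transporter GAT2, had 4.14 and 5.33 FPKM in ND, 3.07 and 2.89 FPKM in HFD, 1.24 and 2.14 FPKM in HSD and 1.62 and 0.895 FPKM in HFSD. Its sucrose retinas lay below the others, the difference from ND in HFSD being −1.36 ± 0.25 (limma, adjusted p = 0.195).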

How the data were processed

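RNA of 8 retinas was sequenced from TruSeq libraries on an Illumina instrument. The authors aligned trimmed reads to a rabbit genome (TopHat2), kept reads with 1 location and deposited FPKM for each gene and library, in a table whose name speaks of counts. The build and annotation are not given in the sources used here, so no coordinates or sequences are given. FPKM steps were whole fragments for 99.994% of values (tolerance 0.01 fragment), which gave lengths and depths. Log2(FPKM + 1) of protein-coding genes reaching 1 FPKM in 2 or more libraries was fitted with limma 3.58.1 (R 4.3.3, variance trend, 1 model of the 4 groups), with Benjamini-Hochberg adjustment over 12204 genes. The members, classes, partner lists and comparisons were chosen with earlier results of these data known. Values by retina were given for the most abundant gene of each class, 9 key receptors, the 3 smallest p-values of each of 6 comparisons and genes past the fold limits in at least 2 diets, and of the partners for the 3 smallest p-values in each diet. Some members are counted but not reported here. Other members are named within their class, of which GABRR3 was given by retina after its values were seen. Alternatives were another pseudocount (0.1), no filter, each library left out, the compared groups alone, a replicate block, median-ratio scaling, no variance trend, voom, and, chosen after the values were seen, no ND2 and HFD1, and the length trend taken off.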

Additional observations from a re-analysis of the deposited data

Results flagged for a closer look

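Among the receptor genes, 2 had a sucrose difference that depended on fat by the interaction term at an unadjusted p under 0.05, and both failed the adjustment. They were 4.44% of the receptor genes tested, near the 3.74% of all genes tested that passed. GRIN3A had an interaction of −0.71 ± 0.30 (SE) on the log2 scale (limma, unadjusted p = 0.0466, adjusted p = 0.999). It was higher in HSD than in ND by 0.62 ± 0.21 and differed by −0.09 ± 0.21 between HFSD and HFD, and both HSD retinas lay above both ND retinas. GABBR1 had an interaction of 0.40 ± 0.15 (limma, unadjusted p = 0.0316, adjusted p = 0.999). It differed by −0.04 between HSD and ND and by 0.37 ± 0.11 between HFSD and HFD, where both HFSD retinas lay above both HFD retinas. Over alternatives the interaction ranged from −1.08 to −0.47 for GRIN3A and from 0.32 to 0.53 for GABBR1. It lost the unadjusted limit in 8 of 16 alternatives for GRIN3A and in 6 of 16 for GABBR1.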

How the results depend on the processing

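The replicate numbers did not pair the samples, since same-numbered retinas of different diets deviated with correlations of −0.16 to 0.08. With a replicate block, the receptor genes at an unadjusted p under 0.05 numbered 1 in HFD, 6 in HSD, 14 in HFSD, 22 with sucrose, 0 with fat (1 without the block) and 1 for the interaction (2 without it). With 1 library left out at a time they numbered 1 to 5 in HFD, 2 to 20 in HSD, 5 to 21 in HFSD, 16 to 23 with sucrose, where 11.4% to 25.0% of all genes passed, 0 to 8 with fat and 0 to 8 for the interaction. By adjusted p the outcome with sucrose changed when ND1 was left out, a setting in which ND rests on 1 retina. The sucrose difference of GRIK1 ran from 0.64 to 0.90 over the libraries left out. The number of receptor genes past the fold limits changed as well, and the share of all genes past them is not given for any alternative. Fitting only the groups compared gave 0 receptor genes at the unadjusted limit in HFD and 4 in HSD, where 295 and 828 of all genes passed. Voom gave 2 in HFD and 2 with fat, where 506 and 359 of all genes passed. For the interaction no filter and no variance trend each gave 1, where 678 of 16404 and 458 of 12204 genes passed. A pseudocount of 0.1 moved the genes past the fold limits to 3 in HFD and 7 in HSD, and median-ratio scaling gave 0 in HFD. Without ND2 and HFD1, an alternative chosen after the data were seen, the counts were 6 in HFD, 5 in HSD, 7 in HFSD, 16 with sucrose, 3 with fat and 7 for the interaction, where in the same order 9.32%, 10.2%, 8.33%, 15.3%, 5.74% and 10.6% of all genes passed. Of 215 alternative values of 13 gene differences, 184 kept their direction and side of the unadjusted limit, 31 kept the direction and lost the limit, and 0 reversed. Among the 31 were 9 of 16 for GRIN3A with fat, 8 of 16 for its interaction and 6 of 16 for the interaction of GABBR1. The 13 differences were picked as those with the smallest p-values in these same data, which favours a kept direction. Genes not picked in this way could change sign, such as GRIA1 with sucrose, at −0.13 to 0.43, and GABRR1, at −0.26 to 0.09. The causes were not tested. The precision was limited by 2 retinas a diet and, for low genes such as GRIN2B, by 22 to 112 fragments a library.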
